A study of Mus musculus with 12 samples.

Results

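The genes described here are MAP3K8, 4 mitogen-activated protein (MAP) kinases and 4 dual-specificity phosphatases that act on MAP kinases, in CT26 cells given the chemokine CX3CL1, the cytokine IFN-γ, or both. The 9 members were listed by name from the 23636 gene symbols of the expression table, by a rule that uses no measured value, though with earlier results of these data known: MAP3K8, MAPK3, MAPK8, MAPK9, MAPK14, DUSP1, DUSP4, DUSP5 and DUSP6. All 9 were among the 11878 genes that averaged 0.2 TPM or more and so entered the tests. TPM is a transcript level corrected for gene length and library size. MAP3K8 is also among the genes the study displayed for CX3CL1, a choice made on these same libraries, so its rise with CX3CL1 is not independent evidence.

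CT26 is a mouse colon carcinoma line, and all groups are of this line. RNA was sequenced from 4 groups of 3 libraries each, which the labels call biological replicates of the one cell line. Per the labels the groups were No treatment, CX3CL1 alone, IFN-γ alone, and CX3CL1+IFN-γ. By the study's account CX3CL1 was given at 2 µg/ml and IFN-γ at 100 ng/ml, for 8 h. A passage of the study's text also names TNF-α for the cells given both agents, with CX3CL1 added afterwards, while the labels name IFN-γ and CX3CL1 alone. Whether TNF-α was present and the order of addition are therefore not settled here. Nothing given says how far the 3 replicates of a group were separate cultures, so p-values measure only the spread between these libraries, which may be technical. A change in RNA per cell and a change in the share of cells that make it cannot be told apart in such bulk samples.

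MAP kinases are the last step of a relay of kinases. A MAP3 kinase phosphorylates a MAP2 kinase, which phosphorylates a MAP kinase, and the MAP kinase then acts on transcription factors and other kinases. There are several arms: ERK, which follows growth factors, and JNK and p38, which follow stress and inflammatory cytokines. MAP3K8, also called TPL2 or COT, opens the ERK arm in inflammatory signalling and is held inactive and stable in a complex with the NFKB1 precursor protein and TNIP2. Dual-specificity phosphatases (DUSPs) remove phosphate from both the threonine and the tyrosine of an active MAP kinase. Many of their genes are themselves switched on by the kinases they turn off. Kinase activity is set by phosphorylation, which RNA levels do not show.

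The promoters of DUSP1 and DUSP5 are shown first because these phosphatases are classical rapid-response genes whose known kinds of element can be found in the letters. Each sequence is the 250 bases before the transcription start in the RefSeq annotation of GRCm38.p6, 5′ to 3′ on the gene's own strand. DUSP1 lies at chr17:26508473-26508722 on the minus strand and DUSP5 at chr19:53528895-53529144 on the plus strand. Capitals mark matches to the cAMP response element (CRE, TGACGTCA), to the 5-base core of that element (TGACG) and to the CArG box that serum response factor binds, on either strand.
DUSP1: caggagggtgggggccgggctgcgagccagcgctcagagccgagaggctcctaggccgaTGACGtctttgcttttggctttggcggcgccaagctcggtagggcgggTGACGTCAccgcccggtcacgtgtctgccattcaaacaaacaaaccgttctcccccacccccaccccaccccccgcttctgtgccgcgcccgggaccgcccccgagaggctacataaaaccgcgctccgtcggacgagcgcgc
DUSP5: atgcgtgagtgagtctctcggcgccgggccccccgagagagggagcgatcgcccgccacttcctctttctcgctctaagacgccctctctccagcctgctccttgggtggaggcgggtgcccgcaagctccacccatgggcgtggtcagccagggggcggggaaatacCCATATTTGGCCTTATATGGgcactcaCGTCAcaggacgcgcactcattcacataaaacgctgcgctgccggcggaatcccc
The DUSP1 window held 1 full CRE, whose first base was at -143 from the start. That CRE overlaps 2 of the 3 cores counted there, at -143 and -140, and the remaining core was at -191. In the DUSP5 window, 2 CArG boxes stood end to end at -82 and -72, with 1 core at -55. Of 32851 mouse promoter windows of 300 bases (250 before and 50 after the start), 1.79% held a full CRE, 20.8% a core and 1.63% a CArG box. Cores were also present in windows of MAPK8 (at -36 and -14) and MAPK9 (at -7).

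RefSeq windows were at hand for 6 of the 9 genes, 8 windows in all, and those of MAP3K8, MAPK3 and DUSP4 were not used here. The search covered 5 more motifs on both strands. These were the AP-1 site TGANTCA (in 7.81% of all windows), the interferon-gamma-activated site TTCNNNGAA (8.3%), the interferon-stimulated response element (3.44%), the ETS site CCGGAA (14.9%) and the NF-κB consensus (4.51%). One of the 2 MAPK14 windows held an interferon-gamma-activated site at -232, an overlapping ETS site at -229 and a response element at -29. The DUSP6 window held none of the 8 motifs. These are matches of letters and show no binding.

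Before the members, the treatments were checked on genes fixed for it. IRF1, an early IFN-γ target, was at 18.7 to 20.5 TPM without treatment, 23.5 to 34.0 with CX3CL1, 77.6 to 166 with IFN-γ and 66.9 to 126 with both. CXCL1, a chemokine gene driven by NF-κB, was at 4.03 to 6.70, 305 to 620, 39.0 to 71.7 and 500 to 1551 TPM in the same order. Every library given IFN-γ was above every other in IRF1, and every library given CX3CL1 above every other in CXCL1. Of all tested genes, 5.50% had every CX3CL1 library above every untreated one, and 20.6% every IFN-γ library. CXCL1 is also among the genes the study reported as raised by CX3CL1 in these same libraries, so its rise is not independent evidence. Between 10613 and 10824 symbols reached 1 TPM in a library. Replicates of a group correlated at Pearson's r of 0.984 to 0.996 over the tested genes. CX3CL1 replicate 2 stood apart, with a median absolute difference of 0.262 to 0.266 log2 units from its own replicates against 0.0971 to 0.198 for the other pairs. Of 7 epithelial markers, 6 were under 1 TPM in every library and EPCAM was at 0 in all of them. The other, KRT18, carried the summed epithelial level, which was 34.6 to 54.0 TPM without treatment, 25.3 to 37.1 with CX3CL1, 26.1 to 29.7 with IFN-γ and 18.5 to 24.4 with both, while VIM was at 1684 to 4831 TPM. Leukocyte markers were under 1 TPM for 6 of 8 genes, with CD3E at 0. CD14 at 23.7 to 47.5 TPM made up nearly all of their sum, which was 24.6 to 30.8 TPM without treatment, 28.5 to 49.4 with CX3CL1, 27.7 to 37.5 with IFN-γ and 31.8 to 43.2 with both. All 3 endothelial markers were at most 0.0468 TPM. The part of these markers in the results was not tested.

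In the GENCODE vM21 annotation of GRCm38, the mm10 build, the 9 genes lie on 8 chromosomes. MAP3K8 is at chr18:4331327-4353015, MAPK3 at chr7:126759601-126765819, MAPK8 at chr14:33377898-33447158, MAPK9 at chr11:49846751-49886421 and MAPK14 at chr17:28691329-28748406. DUSP1 shares that chromosome at chr17:26505590-26562128, and DUSP4 is at chr8:34807297-34819894, DUSP5 at chr19:53529109-53542431 and DUSP6 at chr10:99263231-99267489. DUSP1 is on the minus strand, and its RefSeq promoter window printed above lies inside the DUSP1 span given here. The start used for that window is therefore not the outer end of the span at 26562128. The table gives 1 value a gene symbol and library, not by transcript.

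The 9 genes covered a wide range of levels. Averaged over the 12 libraries, MAPK3, which encodes the kinase ERK1, was the highest at 160 TPM, followed by DUSP4 (137), DUSP6 (86.0), MAPK14 (64.8), DUSP5 (38.1), MAPK9 (17.6), MAPK8 (11.5), DUSP1 (9.22) and MAP3K8 (2.17). Most neighbours in this order were separate within every group. The exceptions were MAPK3 and DUSP4, whose libraries overlapped without treatment and with IFN-γ, and MAPK8 and DUSP1, which overlapped without treatment, with IFN-γ and with both agents. MAP3K8 was the lowest of the 9 in every library and had the widest range, its highest library being 12.3-fold above its lowest. For MAPK3 that ratio was 1.17 and for DUSP1, the next widest, 2.66.

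MAP3K8 was the only one of the 9 whose RNA passed the test with CX3CL1. Without treatment its level was 0.663, 0.404 and 0.625 TPM in replicates 1, 2 and 3. With CX3CL1 alone it was 2.93, 2.55 and 2.83 TPM. Every CX3CL1 library was thus above every untreated one, as for 5.50% of all tested genes. The mean rose from 0.564 ± 0.140 to 2.77 ± 0.197 TPM (SD, n = 3), a ratio of 4.92. In log2(TPM + 1) units, where the change of a low gene comes out smaller than its ratio, the difference was 1.27 (SE 0.19, 95% interval 0.86 to 1.69, limma adjusted p = 0.00260). Among all tested genes 1.95% were called in this comparison (232 genes at an adjusted p under 0.05, 212 of them higher), and MAP3K8 ranked 81 by p and 123 by size of rise. Without CX3CL1 replicate 2 the difference was 1.32 with an adjusted p of 0.00942 in limma.

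With IFN-γ alone MAP3K8 was at 2.14, 1.10 and 1.25 TPM. All 3 libraries were above all 3 untreated ones, as for 20.6% of genes, and replicate 1 was well above the other two. The mean was 1.50 ± 0.560 TPM (SD, n = 3), 2.65 times that without treatment. The log2 difference of 0.66 (SE 0.19, 95% interval 0.24 to 1.07) had a limma adjusted p of 0.0547 and was not called, against 7.85% of all genes called. Same-numbered libraries of these groups deviated together. With the replicate number as a block, fitted over all 12 libraries, the SE was 0.13, the limma adjusted p 0.00574 and the gene called higher. Leaving out IFN-γ replicate 1 gave a difference of 0.48 and an adjusted p of 0.214. Leaving out CX3CL1+IFN-γ replicate 1 or 2, libraries that enter this comparison only through the shared estimate of spread, gave adjusted p of 0.0374 and 0.0209 in limma.

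With both agents MAP3K8 reached 4.96, 2.52 and 4.08 TPM, a mean of 3.85 ± 1.24 (SD, n = 3). Replicate 2 was the lowest and lay just under the lowest library given CX3CL1 alone. All 3 were above the untreated libraries, as for 18.6% of genes. Against no treatment the level rose 6.83-fold (log2 difference 1.60, SE 0.19, 95% interval 1.19 to 2.02, limma adjusted p = 8.28e-05), in a comparison that called 11.9% of all genes. Against IFN-γ alone all 3 libraries were higher (8.54% of genes), the ratio of means was 2.57 and the log2 difference 0.95 (SE 0.19, 95% interval 0.54 to 1.36). This difference was not called (limma adjusted p = 0.0648), in a comparison that called 0.362% of genes and in which MAP3K8 ranked 51 by p. It was called with the replicate number as a block, at an adjusted p of 0.00526. It was also called without IFN-γ replicate 1 (difference 1.12, adjusted p 0.0354) and without CX3CL1+IFN-γ replicate 2 (1.16, adjusted p 0.0108) in limma. Between same-numbered libraries the ratio was 2.29 to 3.25.

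IFN-γ added to CX3CL1 left MAP3K8 libraries overlapping. The ratio of means was 1.39 and the log2 difference 0.33 (SE 0.19, 95% interval -0.08 to 0.74, limma adjusted p = 0.409), against 4.70% of all genes called. With the block the adjusted p was 0.126. An interaction term asked whether CX3CL1 moved MAP3K8 by the same amount in the presence of IFN-γ as in its absence. The difference between the 2 CX3CL1 differences was -0.33 (SE 0.27, 95% interval -0.91 to 0.26, limma adjusted p = 1.00), so they were not shown to differ. On the log2(TPM + 1) scale the interval allows the CX3CL1 difference to be up to 0.91 smaller with IFN-γ. That scale shrinks the change of a low gene, and the ratios of means were 4.92 without IFN-γ and 2.57 with it. Over the other settings tried the estimate was between -0.82 and -0.11, and it was called in none. Limma called 0 genes of all in the interaction (273 at an unadjusted p under 0.05, or 2.30%), which is 0%.

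The proteins that hold MAP3K8 are encoded by NFKB1 and TNIP2. NFKB1, whose precursor is also a subunit source for NF-κB, was at 73.7, 77.5 and 65.6 TPM without treatment and 155, 128 and 133 TPM with CX3CL1. With IFN-γ it was at 83.1, 84.6 and 83.2 TPM, and with both at 145, 142 and 159 TPM. The libraries with CX3CL1 were all above those without it, whether or not IFN-γ was present. CX3CL1 libraries were all above untreated ones in 5.50% of all tested genes, and libraries with both agents above those with IFN-γ in 8.54%. The study also reported NF-κB mRNA as raised by CX3CL1 in these same libraries, so the rise of NFKB1 is not independent evidence. NFKB1 rose by 0.93 with CX3CL1 (SE 0.10, limma adjusted p = 2.54e-04) and by 0.82 with CX3CL1 on top of IFN-γ (SE 0.10, adjusted p = 0.00151) on the log2 scale. TNIP2 moved less, at 10.6, 9.23 and 9.23 TPM without treatment, 10.4, 10.2 and 10.7 with CX3CL1, 12.2, 11.7 and 12.2 with IFN-γ, and 13.8, 11.98 and 11.7 with both. It passed the test for both agents against none (log2 difference 0.33, SE 0.10, limma adjusted p = 0.0493). For IFN-γ alone the TNIP2 difference was 0.28 with an adjusted p of 0.115, or 0.0373 with the block, in limma.

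**Figure D1:**
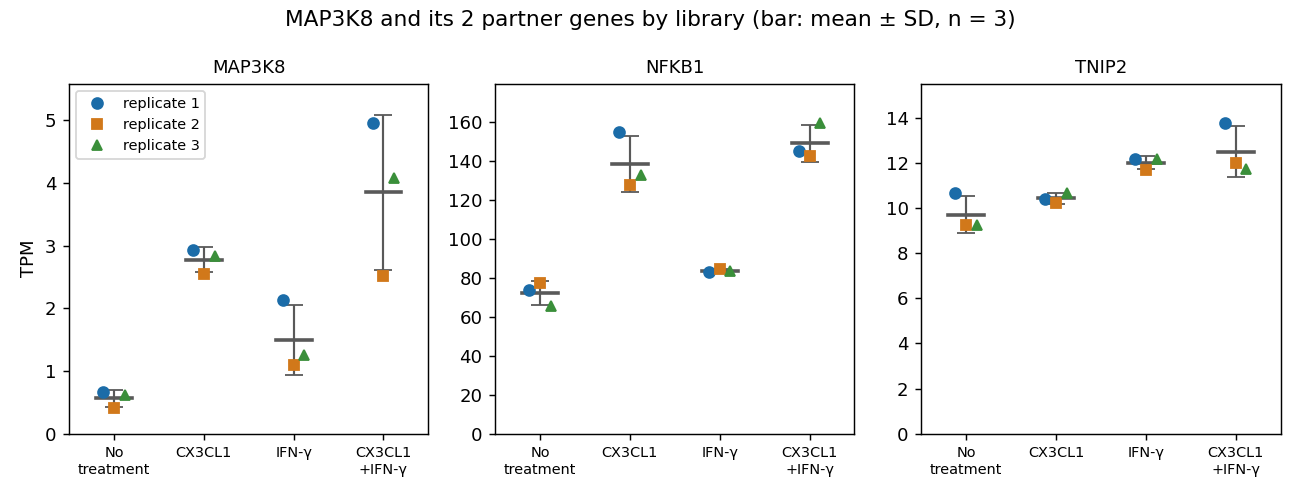
TPM (vertical axes, from 0) of MAP3K8, NFKB1 and TNIP2 in each of the 12 libraries by treatment group, with marker shape for the replicate number and bars for the mean ± SD (n = 3). MAP3K8 lies between 0.404 and 0.663 TPM without treatment and between 2.55 and 2.93 TPM with CX3CL1, and NFKB1 is at 128 TPM or more in every library given CX3CL1 and at 84.6 TPM or less in the others.

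The genes whose RNA followed MAP3K8 most closely over the 12 libraries, by Pearson's r of log2(TPM + 1) among 10751 genes that averaged 1 TPM or more, were CEBPD (0.978), CXCL1 (0.978), NFKBID (0.974), NFKBIZ (0.974) and ZC3H12A (0.972). NFKBID and NFKBIZ encode atypical IκB proteins, CEBPD an inflammatory transcription factor and ZC3H12A an RNase that degrades inflammatory mRNAs. These values are a description over 12 libraries that share their treatments, and genes are not independent replicates.

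None of the 4 MAP kinase genes was called in any comparison in limma (0 of 20 tests between groups). MAPK3, the ERK1 gene, was at 149, 173 and 166 TPM without treatment, 158, 165 and 163 with CX3CL1, 150, 161 and 149 with IFN-γ, and 173, 159 and 150 with both. Its groups overlapped in every comparison, and its CX3CL1 difference was 0.00 on the log2 scale with a 95% interval of -0.19 to 0.19. MAPK14, which encodes p38α, was at 57.4 to 67.9 TPM without treatment, 60.6 to 69.8 with CX3CL1, 61.8 to 69.5 with IFN-γ and 62.6 to 67.0 with both. Its CX3CL1 difference was 0.02, with a 95% interval of -0.18 to 0.23. A p that misses the threshold does not show that these levels were equal, but intervals this narrow bound the change at either gene.

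MAPK8 and MAPK9 encode the JNK kinases JNK1 and JNK2. MAPK8 was at 12.9, 9.85 and 11.3 TPM without treatment, 11.4, 14.6 and 11.3 with CX3CL1, 10.5, 9.71 and 11.0 with IFN-γ, and 12.1, 11.2 and 12.5 with both. Its highest library was CX3CL1 replicate 2, the library that stood apart. The CX3CL1 difference of 0.12 (95% interval -0.15 to 0.40) became 0.01 without it. With both agents all MAPK8 libraries were above those with IFN-γ alone (log2 difference 0.18, SE 0.13, limma adjusted p = 0.975), as were those of 8.54% of all genes.

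MAPK9 was at 22.1, 17.6 and 17.7 TPM without treatment, 21.3, 21.1 and 16.3 with CX3CL1, 15.1, 14.5 and 15.7 with IFN-γ, and 19.5, 14.6 and 15.8 with both. The IFN-γ libraries were all under the untreated ones, with a ratio of means of 0.789. This held for 13.7% of all genes. The MAPK9 log2 difference of -0.32 (SE 0.14, 95% interval -0.62 to -0.01) was not called (limma adjusted p = 0.206), nor with the block (0.0808), but was called at 0.0349 after quantile normalization. Of the 40 tests between groups on the 8 genes other than MAP3K8, it was the single one with an unadjusted p under 0.05. Without a block none of the 40 was called, while with the block DUSP1 was called for IFN-γ on CX3CL1. Unadjusted p under 0.05 was reached by 8.07% of all genes with CX3CL1, 22.0% with IFN-γ, 4.35% with CX3CL1 on IFN-γ, 17.7% with IFN-γ on CX3CL1 and 24.6% with both against none.

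**Figure D2:**
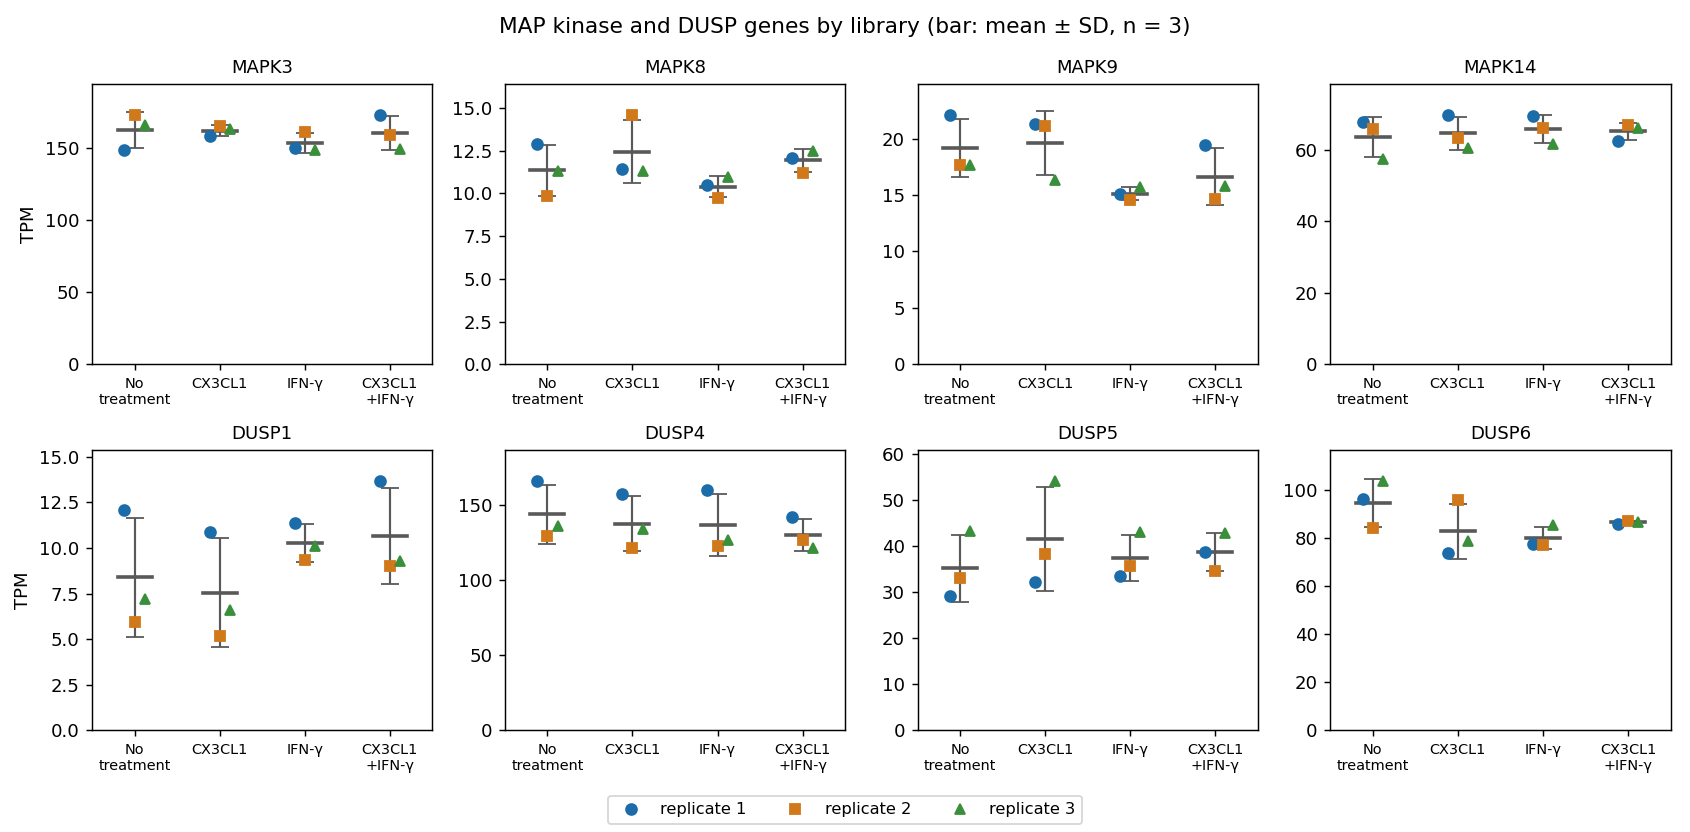
TPM (vertical axes, from 0) of the 4 MAP kinase genes and the 4 DUSP genes in each of the 12 libraries by treatment group, with marker shape for the replicate number and bars for the mean ± SD (n = 3). The IFN-γ libraries of MAPK9 (14.5 to 15.7 TPM) are under all untreated and CX3CL1 libraries and those of MAPK8 (9.71 to 11.0 TPM) under all libraries given CX3CL1, while DUSP1 and DUSP4 are highest in replicate 1 of each group and DUSP5 in replicate 3.

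Without a block the phosphatase genes were not called in any comparison either. DUSP1, a nuclear phosphatase of p38, JNK and ERK whose promoter is shown above, was at 12.1, 5.92 and 7.18 TPM without treatment, 10.9, 5.14 and 6.59 with CX3CL1, 11.4, 9.35 and 10.1 with IFN-γ, and 13.7, 9.02 and 9.28 with both. Replicate 1 was the highest library in each of the 4 groups. Its groups overlapped in all 5 comparisons of groups. The DUSP1 intervals were the widest of the 9 genes, with a CX3CL1 difference of -0.14 (SE 0.26, 95% interval -0.71 to 0.43). That difference turned to 0.13 without No treatment replicate 1 and to 0.07 without CX3CL1 replicate 2. With both agents against CX3CL1 alone the DUSP1 level was 1.26 to 1.75 times as high in each same-numbered pair, a ratio of means of 1.41. That log2 difference was 0.48 (SE 0.26, 95% interval -0.09 to 1.05, limma adjusted p = 0.378). With the replicate number as a block the SE was 0.13 and the adjusted p 0.0370, so the call depends on taking same-numbered libraries as pairs. The annotated span of DUSP1 overlaps Ergic1 on the other strand, as those of MAPK8, MAPK14 and DUSP5 overlap other annotated genes, and the sources used here do not state whether reads were counted by strand.

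DUSP4, a nuclear phosphatase of the same class, was at 166, 130 and 136 TPM without treatment, 158, 121 and 134 with CX3CL1, 160, 123 and 127 with IFN-γ, and 142, 127 and 122 with both. Replicate 1 was again the highest in all 4 groups. The largest DUSP4 difference, for both agents against none, was -0.14 (SE 0.14, 95% interval -0.43 to 0.16, limma adjusted p = 0.595). DUSP5, a nuclear phosphatase specific to ERK, was at 29.1, 33.0 and 43.2 TPM without treatment, 32.1, 38.2 and 54.1 with CX3CL1, 33.4, 35.6 and 43.1 with IFN-γ, and 38.6, 34.5 and 42.8 with both. For this gene replicate 3 was the highest in each group. The DUSP5 difference with CX3CL1 was 0.22 (SE 0.19, 95% interval -0.19 to 0.63, limma adjusted p = 1.00). It was 0.02 without CX3CL1 replicate 3, 0.10 and 0.38 without No treatment replicates 1 and 3, and 0.38 without CX3CL1 replicate 1.

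DUSP6, the cytoplasmic ERK phosphatase that is often read as a marker of ERK output, was at 96.3, 84.0 and 104 TPM without treatment, 73.7, 95.8 and 78.6 with CX3CL1, 77.4, 77.1 and 85.5 with IFN-γ, and 85.9, 87.1 and 86.5 with both. The CX3CL1 libraries overlapped the untreated ones through replicate 2. The DUSP6 difference with CX3CL1 was -0.20 (SE 0.11, 95% interval -0.44 to 0.04, limma adjusted p = 0.826). Without CX3CL1 replicate 2 it was -0.31 with an adjusted p of 0.174 in limma. Its IFN-γ difference was of like size, -0.24 (SE 0.11, 95% interval -0.48 to 0.00, adjusted p = 0.232), and shares the untreated libraries with the CX3CL1 one. All libraries with both agents were above those with IFN-γ alone, as for 8.54% of all genes, by a log2 difference of 0.11 (SE 0.11, adjusted p = 0.975 in limma). The DUSP6 interaction was 0.31 (SE 0.16, 95% interval -0.03 to 0.65, adjusted p = 1.00 in limma).

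**Figure D3:**
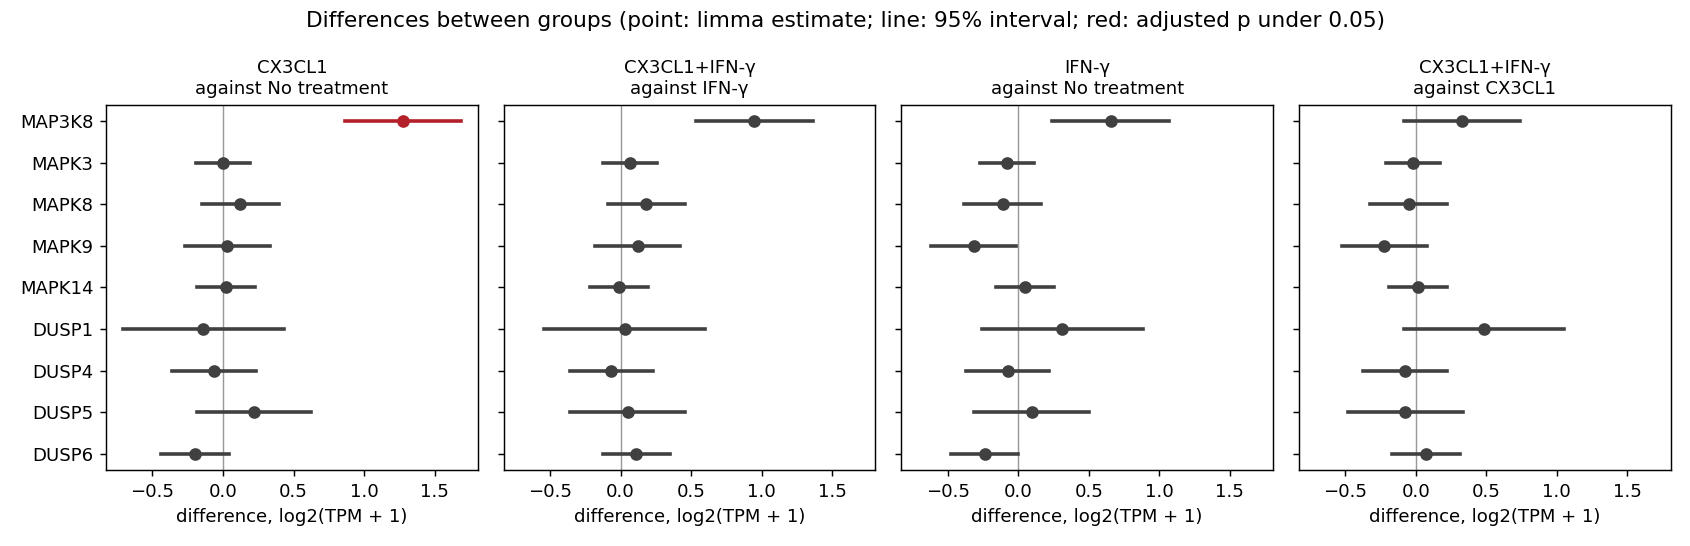
Differences between groups in log2(TPM + 1) units (horizontal axes) for the 9 genes in 4 comparisons, with points for the limma estimate, lines for the 95% interval and red for an adjusted p under 0.05. MAP3K8 with CX3CL1 (1.27) is the single red point, and the intervals of DUSP1 are the widest, reaching from -0.71 to 1.05 over these comparisons.

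Across the 8 genes other than MAP3K8 the ratio of group means stayed between 0.789 and 1.15 for the kinases and between 0.845 and 1.41 for the DUSPs. The median log2 difference over all 9 genes was 0.02 with CX3CL1 and -0.08 with IFN-γ, against -0.02 and 0.03 over all tested genes. For CX3CL1 on IFN-γ it was 0.06 (all genes -0.00), for IFN-γ on CX3CL1 -0.02 (0.04) and for both against none 0.04 (0.02).

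The spread of each gene over the 12 libraries was split between the treatment group and the replicate number. For MAP3K8 the group took 89.3% of the sum of squares and the replicate number 7.45%. The order was the opposite for DUSP4 (10.2% and 82.4%), DUSP5 (12.1% and 71.2%) and DUSP1 (30.6% and 58.5%), and for MAPK14 (5.22% and 48.6%). For MAPK9 the shares were 50.5% and 24.7%, for DUSP6 41.7% and 6.49%, for MAPK8 36.3% and 2.64% and for MAPK3 19.0% and 17.9%. These shares are raw, and a split into 4 groups takes more by spread alone than a split into 3 numbers. Over all tested genes the medians were 35.3% and 22.9%, and the replicate number took the larger share in 39.0% of genes. The labels do not say what libraries of one number share, so what the number stands for was not tested.

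**Figure D4:**
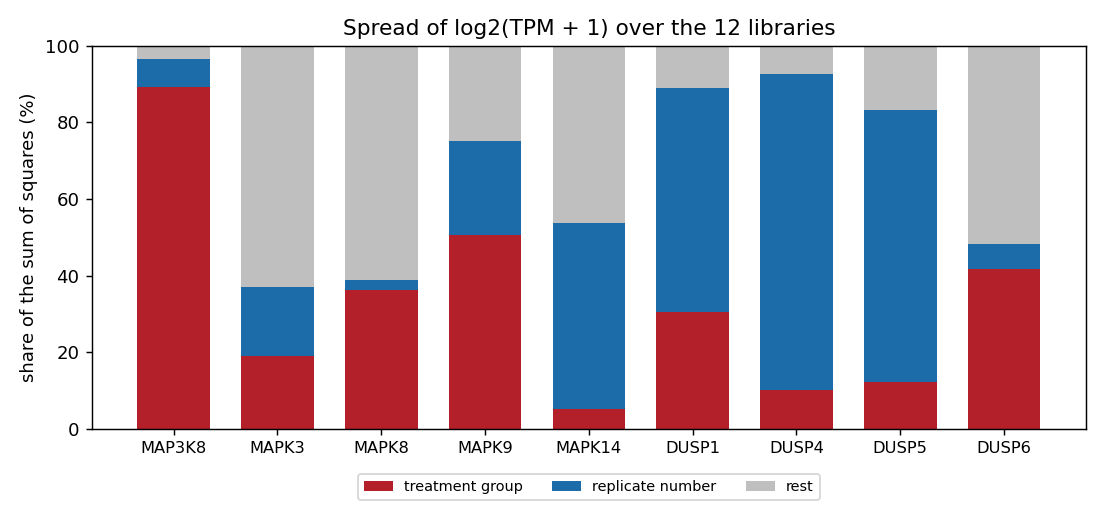
Share of the sum of squares of log2(TPM + 1) over the 12 libraries (vertical axis, %) that falls to the treatment group (red), the replicate number (blue) and the rest (grey) for each of the 9 genes. The treatment group takes 89.3% for MAP3K8, while the replicate number takes 82.4% for DUSP4, 71.2% for DUSP5 and 58.5% for DUSP1.

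The rest of the pathway was read through 93 other genes in 10 lists, which held other MAP3 kinases, MAP2 kinases, other MAP kinases, other DUSPs, ERK feedback proteins, MAP3K8 partners, kinases that MAP kinases activate, scaffolds and ERK output genes. Of these, 73 were tested. With CX3CL1, 2 were called higher and 1 lower, 4.11% of those tested against 1.95% of all genes. Besides NFKB1 these were IER3 and MAP3K14. IER3, an immediate-early gene of ERK and NF-κB, was at 97.9, 72.0 and 62.9 TPM without treatment and 239, 140 and 207 with CX3CL1, and rose by 1.31 on the log2 scale (SE 0.25, limma adjusted p = 0.0123). MAP3K14, the NIK kinase of the non-canonical NF-κB pathway, fell from 5.66, 8.01 and 6.83 TPM to 3.67, 3.41 and 4.17, a log2 difference of -0.71 (SE 0.13, adjusted p = 0.00746 in limma). Among the 18 tested MAP3 kinases other than MAP3K8 it was the single one called, and 0 of 7 MAP2 kinases, 0 of 7 other MAP kinases and 0 of 15 other DUSPs were called. The 5 tested ERK feedback genes of the SPRY and SPRED families had 0 calls with CX3CL1, a median log2 difference of -0.05 against -0.02 over all genes, and 0 calls in each of the other comparisons. With the replicate block 1 of them was called lower for both agents against none, where 2464 of all 11878 genes were called.

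With IFN-γ alone 2 of the 73 genes were called, both higher, which is 2.74% against 7.85% of all genes. IER3 stood at 288, 184 and 206 TPM (log2 difference 1.53, SE 0.25, limma adjusted p = 0.00169). DUSP28, an atypical DUSP, went from 2.79, 2.41 and 2.37 TPM to 6.92, 5.19 and 8.64 (log2 difference 1.15, SE 0.22, adjusted p = 0.00534 in limma). With the replicate block 12 of the 73 were called, all higher, against 1929 of all 11878 genes. When CX3CL1 was added to IFN-γ, NFKB1 was the 1 gene called of the 73 (1.37%, against 0.362% of all genes). The block added IER3, 2 calls in all, against 95 of all 11878 genes. IER3 reached 561, 328 and 480 TPM with both agents, above every IFN-γ library, a log2 difference of 1.00 with an adjusted p of 0.196 without the block and 0.00421 with it in limma.

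IFN-γ added to CX3CL1 gave 3 higher and 2 lower calls among the 73 genes (6.85%, against 4.70% of all genes). With the block these were 9 and 2, against 1369 calls among all 11878 genes. IER3 (log2 difference 1.22, limma adjusted p = 0.0131), DUSP28 (0.88, 0.0375) and MAP3K14 (0.48, 0.0484) were higher. DUSP14 (-0.55, 0.0212), an atypical DUSP, and MAP2K3 (-0.43, 0.0411), a MAP2 kinase of the p38 arm, were lower. Without CX3CL1+IFN-γ replicate 3, 0 of the 73 were called, against 270 of all 11878 genes. Both agents against none gave 9 higher and 2 lower calls, 15.1%, near the 11.9% over all genes. The largest were IER3 (2.53, limma adjusted p = 1.62e-05), NFKB1 (1.03, 1.24e-05), DUSP28 (0.98, 0.00968), PHLDA1 (0.85, 0.00300) and TAOK3 (0.72, 0.00526). PHLDA1 is an ERK output gene and TAOK3 a MAP3 kinase. Without No treatment replicate 2 the count was 5. Over all 11878 genes, leaving out 1 library gave 924 to 1892 calls. The interaction called 0 of the 73 in limma, and 0 had an unadjusted p under 0.05. Of the 7 tested ERK output genes, 1 was called with CX3CL1, 1 with IFN-γ and 2 with both against none. All were higher, and the shares over all genes were 1.95%, 7.85% and 11.9%. For both against none 4 of the 7 differences were positive, with a median of 0.02, against 0.02 over all genes. CCND1 averaged 603 TPM without treatment and 493 with both, and ETV4 79.6 and 65.6. With the block 3 of the 7 were called higher and 1 lower, against 2464 calls among all 11878 genes.

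**Figure D5:**
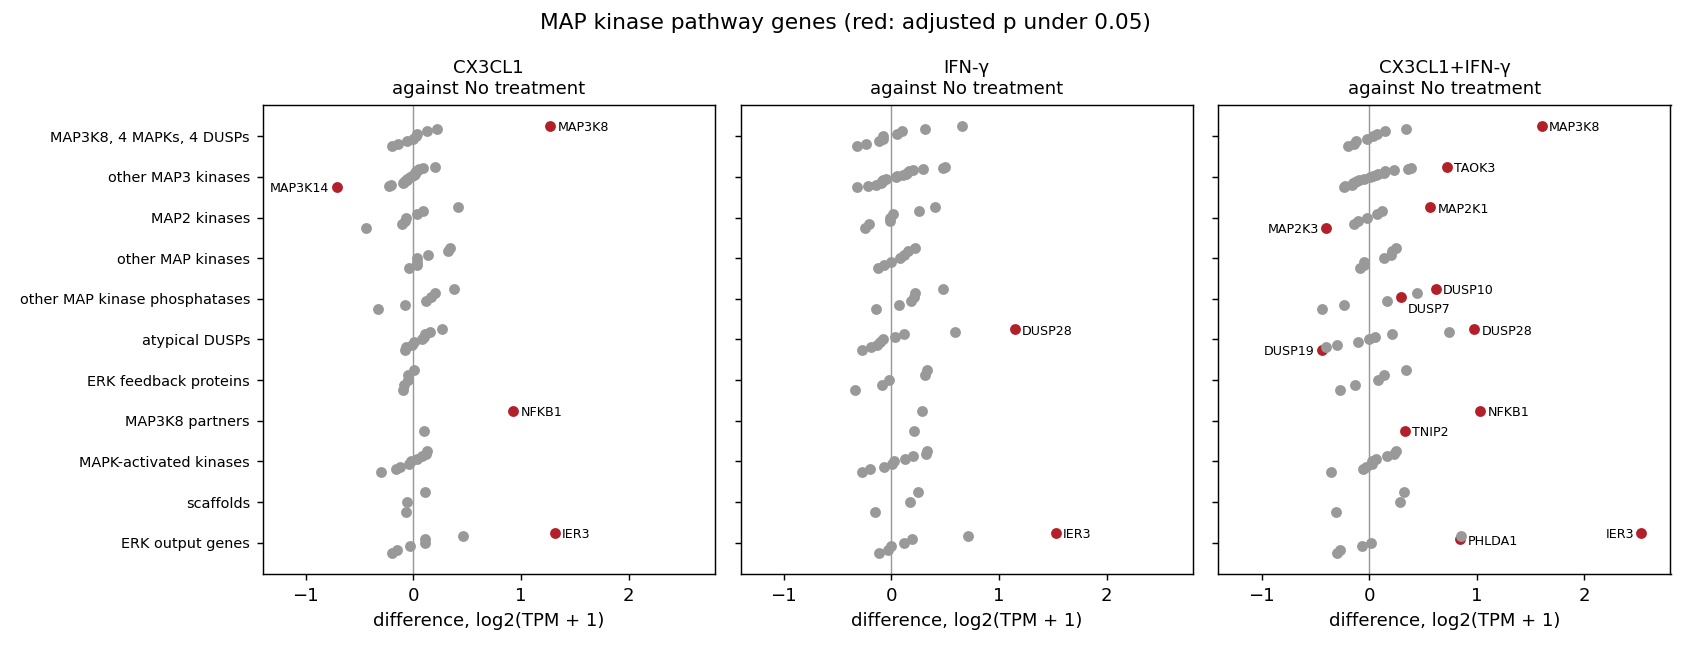
Difference from the untreated group in log2(TPM + 1) units (horizontal axes) for the 9 genes and the 73 tested pathway genes, 1 point a gene and 1 row a list, with CX3CL1, IFN-γ and both agents in the 3 panels and red for an adjusted p under 0.05. CX3CL1 has 4 red points (MAP3K8, NFKB1, IER3 and MAP3K14), IFN-γ 2 and both agents 12, while most points lie near 0.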

How the data were processed

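RNA libraries were prepared with the Kapa mRNA HyperPrep strand-specific kit. Per the submitters' processing notes, STAR 2.7.3a and DESeq2 1.22.1 were used with mm10. The authors deposited TPM, which summed to 1000000 in each library, and how TPM was computed, the annotation and any filter are not given in the sources used here. TPM keeps no read depth, so no counting interval is given. The authors tested counts with DESeq2. Here log2(TPM + 1) of all 12 libraries was fitted in limma 3.58.1 (R 4.3.3; group means, intensity trend, Benjamini-Hochberg over 11878 genes per comparison, threshold 0.05, no block), after tests on simulated data. With 3 libraries against 3 an exact permutation test cannot go below p = 0.1, so none is given. The 9 members and all lists were chosen with earlier results of these data known. Named were the members and, per comparison, up to 5 called pathway genes by size. TNIP2 is named as a MAP3K8 partner, and the plot of pathway genes labels every called gene. Genes most like a member were taken by Pearson's r.

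Replicate numbers come from the labels. Deviations from group means of same-numbered libraries correlated at 0.220 to 0.460 for No treatment and IFN-γ, 0.630 to 0.649 for IFN-γ and CX3CL1+IFN-γ, and 0.351 to 0.428 for CX3CL1 and CX3CL1+IFN-γ, all over 0.1, so these were taken as pairs. For No treatment with CX3CL1 (0.00472 to 0.387) or with CX3CL1+IFN-γ (0.0324 to 0.447) they were not. The fit reported has no block, so its calls leave this pairing out. Where the block changed the call of a member, its result is given beside the main one. The block was fitted over all 12 libraries at once, so it also spans groups that were not taken as pairs. No 2 replicates held identical values. Some items are not reported here.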

Additional observations from a re-analysis of the deposited data

How the results depend on the processing

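Each result was recomputed without each library in turn, with the replicate block, with fits limited to the libraries compared or without an intensity trend, after quantile normalization or median-ratio scaling, with a filter of 1 TPM or none, and with 0.1 as the pseudocount. MAP3K8 with CX3CL1, and with both agents against none, was called under all 20. Of 1071 recomputed values of the 9 genes, 11 crossed the threshold, all into a call, and 0 called values changed sign. Of the values not called, 61 changed sign, among them DUSP1 with CX3CL1 (-0.41 to 0.13) and MAPK9 with CX3CL1 (-0.03 to 0.15), so the direction of such differences is not set. The cause of the changes below was not tested, beyond fewer libraries or more genes where the setting makes them so. The interaction has no fit with only the libraries compared.

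Members called with IFN-γ went from 0 to 1 with a pseudocount of 0.1, only the libraries compared and the replicate block (MAP3K8 each time) and with quantile normalization (MAPK9). With CX3CL1 on IFN-γ they went from 0 to 1 (MAP3K8) with quantile normalization and with the block, and with IFN-γ on CX3CL1 from 0 to 1 (DUSP1) with the block. Of the other pathway genes with IFN-γ on CX3CL1, 5 calls became 2 without the filter, 3 with median-ratio scaling, 1 with only the libraries compared and 11 with the block. The block, which was not taken as a pairing for No treatment with CX3CL1 or CX3CL1+IFN-γ, gave 12 for IFN-γ (2 without it), 2 for CX3CL1 on IFN-γ (1) and 21 for both against none (11).

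Of all genes, CX3CL1 on IFN-γ called 43 in the fit reported, 28 without the filter, 20 with only the libraries compared and 95 with the block. IFN-γ on CX3CL1 called 558, then 344 with only the libraries compared and 1369 with the block. The replicate block raised CX3CL1 from 232 to 455, IFN-γ from 932 to 1929, both against none from 1417 to 2464 and the interaction from 0 to 52, and the interaction had 1 call with quantile normalization. Higher calls with IFN-γ were 75.3%, 65.1% with median-ratio scaling and 50.9% with quantile normalization. With IFN-γ on CX3CL1 they were 80.1%, 68% and 60.5%, and with both against none 68.8%, 61.9% and 47.3%.

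Leaving out 1 library gave 152 (without No treatment replicate 3) to 268 calls for CX3CL1 over all genes, 530 (without No treatment replicate 3) to 1499 (without CX3CL1 replicate 2) for IFN-γ, 16 (without CX3CL1+IFN-γ replicate 3) to 54 for CX3CL1 on IFN-γ, 270 (without CX3CL1+IFN-γ replicate 3) to 668 for IFN-γ on CX3CL1, 924 (without CX3CL1+IFN-γ replicate 3) to 1892 for both against none, and 0 to 11 (without No treatment replicate 1) for the interaction. Members called were 1 to 1 for CX3CL1 and for both against none, 0 to 1 for IFN-γ and for CX3CL1 on IFN-γ, and 0 to 0 for IFN-γ on CX3CL1 and the interaction. Other pathway genes called were 2 (without No treatment replicate 2) to 4 for CX3CL1, 2 to 5 (without No treatment replicate 1) for IFN-γ, 1 to 2 (without CX3CL1+IFN-γ replicate 2) for CX3CL1 on IFN-γ, 0 (without CX3CL1+IFN-γ replicate 3) to 6 for IFN-γ on CX3CL1, 5 (without No treatment replicate 2) to 13 for both against none, and 0 to 0 for the interaction.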

Other observations

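The MAP kinase isoforms that the CT26 libraries carried differed in level. Of the JNK genes, MAPK10 stayed between 0.0182 and 0.111 TPM over the 12 libraries, far under MAPK8 and MAPK9. Of the p38 genes other than MAPK14, MAPK11 was at 8.26 to 14.8 TPM and MAPK12 at 6.64 to 10.6, while MAPK13 was at 0 to 0.108 TPM. MAPK6, an atypical MAP kinase gene, was the highest of the other MAP kinases at 153 to 266 TPM, and its top value was in CX3CL1 replicate 2. None of the 7 tested other MAP kinases was called in any comparison in limma, with 1 (MAPK6 with CX3CL1) at an unadjusted p under 0.05. Paralogs can share reads, and how the authors assigned such reads is not given in the sources used here.

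Among the kinases that MAP kinases activate, 0 of 9 tested genes were called in any comparison in limma, with 0 to 2 a comparison at an unadjusted p under 0.05. Under the replicate block 2 were called higher with IFN-γ, against 1929 calls among all 11878 genes. For both agents against none 1 was called lower under the block, against 2464 calls among all genes. MAPKAPK2, the main p38 target kinase, was at 97.1 to 129 TPM over the 12 libraries, and MAPKAPK3 and RPS6KA6 were listed at 0 in all of them. The genes whose RNA followed DUSP4 most closely were FGD3 (Pearson's r 0.971), ACOT13 (0.962) and CASTOR1 (0.961). For DUSP1 they were TBL2 (0.966), HEXA (0.958) and DECR2 (0.954), for DUSP5 CCNL2 (0.892), HOXD4 (0.887) and 4933439C10RIK (0.876), and for DUSP6 MBIP (0.880), TCEAL8 (0.878) and STARD6 (0.871). For the kinases the closest were MYO1H for MAPK3 (0.901), RANBP2 for MAPK8 (0.988), MINDY2 for MAPK9 (0.931) and ASB8 for MAPK14 (0.913), each over 12 libraries and 10751 genes. These are descriptions with no test.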
